A study of Mus musculus with 14 samples.

Results

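Sorted Tert+ and Tert- cells of the mouse submandibular gland, a salivary gland, were compared after 15 Gy of radiation (RT) in 8 libraries, 4 of each population, out of 14 in the series. Libraries were assigned by their sample titles. All mice were adults of the strain TertCreERT2/+ Rosa26LSL-tdTomato/+, which carries a tamoxifen-inducible Cre recombinase in the Tert gene and tdTomato, a red fluorescent protein that Cre switches on. Tert+ cells were sorted as DAPI-EpCAM+tdTomato+ and Tert- cells as DAPI-EpCAM+tdTomato-. EpCAM is a surface protein of epithelial cells and DAPI marks dead cells. The other 6 libraries, 3 Tert+ and 3 Tert-, came from mice of the same strain without RT. The tamoxifen schedule and the time between RT and sorting are not in the labels, and tdTomato has no row in the count table. A further label field names the opposite population in all 14 libraries, so every direction below rests on the titles. Nothing in the labels ties replicates to different mice, and the p-values then reflect only the variation among these libraries, which may be technical.

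Tert encodes the catalytic subunit of telomerase, the enzyme that extends chromosome ends, and in many adult tissues it is restricted to few cells, some of them with stem cell properties. A reporter switched on by Cre is inherited by the descendants of a marked cell, so tdTomato records past activity of the locus at the time of tamoxifen. The submandibular gland is built from acinar and duct epithelium and also holds resident macrophages and lymphocytes. Tissue macrophages take up dying cells, for which they carry receptors such as AXL and make the opsonin C1q. Monocytes that enter a tissue from blood express the surface protein Ly6C.

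The 4 Tert+ libraries held 5986984 to 11642156 counts each and the 4 Tert- libraries 5520412 to 10953634, and between 16289 and 19210 genes had a count. On a principal component analysis of the 8 libraries, Tert+ replicate 4 stood apart on the first component (21.6% of the variance) and Tert+ replicate 3 on the second (17.5%). The genes past the adjusted threshold and the counts of the macrophage, monocyte and neutrophil, dendritic cell and T cell lists are given with and without single libraries below. Most other values that rest on 1 library are given by library only. The spread was wider in Tert+: over 9324 genes with a mean log2 CPM (reads scaled to a common library size) of at least 3, the median SD of log2(CPM + 1) was 0.333 in Tert+ and 0.283 in Tert-.

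The labels were first checked on Tert. Tert measured 0, 8.41, 4.64 and 1.28 CPM in Tert+ replicates 1 to 4 and 0, 0, 1.19 and 1.29 CPM in Tert- replicates 1 to 4. The ranges overlapped, since 1 Tert+ library had no Tert count and 2 Tert- libraries had some. The means differed by 2.96 CPM with an exact two-sided permutation p of 0.257 (n = 4 and 4), where the smallest p such a test can give is 0.0286. The difference was 1.35 CPM without Tert+ replicate 2 (exact permutation p = 0.457). Without RT the order was the opposite of the titles: Tert measured 0, 0.443 and 0.607 CPM in the 3 Tert+ libraries and 1.62, 2.45 and 1.36 CPM in the 3 Tert- libraries, without overlap (log2 fold change -2.29, edgeR adjusted p = 1). Tert therefore does not settle which label field is right. Epcam, the gene of the sorting antigen, was found in all 8 libraries at 29.9, 89.1, 85.4 and 29.8 CPM in Tert+ and 37.5, 87.2, 46.7 and 69.02 CPM in Tert-, and the ranges overlapped (log2 fold change -0.05 ± 0.51 SE). Mature B cell markers were also found in all 8 libraries: the list of 23 took between 2.80% and 3.45% of counts in Tert+ and between 2.72% and 3.07% in Tert-. Cd79a, a B cell receptor subunit named here after its values were seen, measured 2709.7, 2879, 3045 and 3204 CPM in Tert+ and 2557, 2582, 2636 and 2146 CPM in Tert-. Epithelial identity genes took between 0.0134% and 0.0593% of counts in Tert+ and between 0.0297% and 0.0648% in Tert-. Secretory products of this epithelium took more. Acinar products took between 0.434% and 2.78% of counts in Tert+ and between 0.428% and 1.504% in Tert-. Granular convoluted tubule (duct) products took between 0.0996% and 0.689% in Tert+ and between 0.233% and 1.32% in Tert-. The share of these counts that comes from epithelial cells was not tested, and in bulk samples fewer cells of a type and less RNA per cell cannot be told apart.

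Across 15915 genes tested with edgeR, 2 differed between Tert+ and Tert- after RT at an adjusted p under 0.05. Ly6c2, a GPI-anchored surface protein of inflammatory monocytes, was 1 gene higher in Tert+ (0.00628% of genes tested). It is also on a list of plasmacytoid dendritic cell genes given at the end. P2ry6, a receptor for extracellular UDP, was 1 gene lower (0.00628%). At an unadjusted p under 0.05, 572 genes were higher (3.59%) and 604 lower (3.8%). The 4 Tert+ libraries all lay above the 4 Tert- libraries for 386 genes (2.43%) and all below for 391 (2.46%). The median log2 fold change over all genes was -0.004. In what follows, fold changes are Tert+ over Tert- after RT, and values are listed in the order of replicates 1 to 4. Counts of list members at an unadjusted p under 0.05 are to be read against those 3.59% and 3.8% of all genes. Counts of genes without overlap are to be read against those 2.43% and 2.46%. None of the list members named below passed the adjusted threshold except Ly6c2 and P2ry6.

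**Figure D1:**
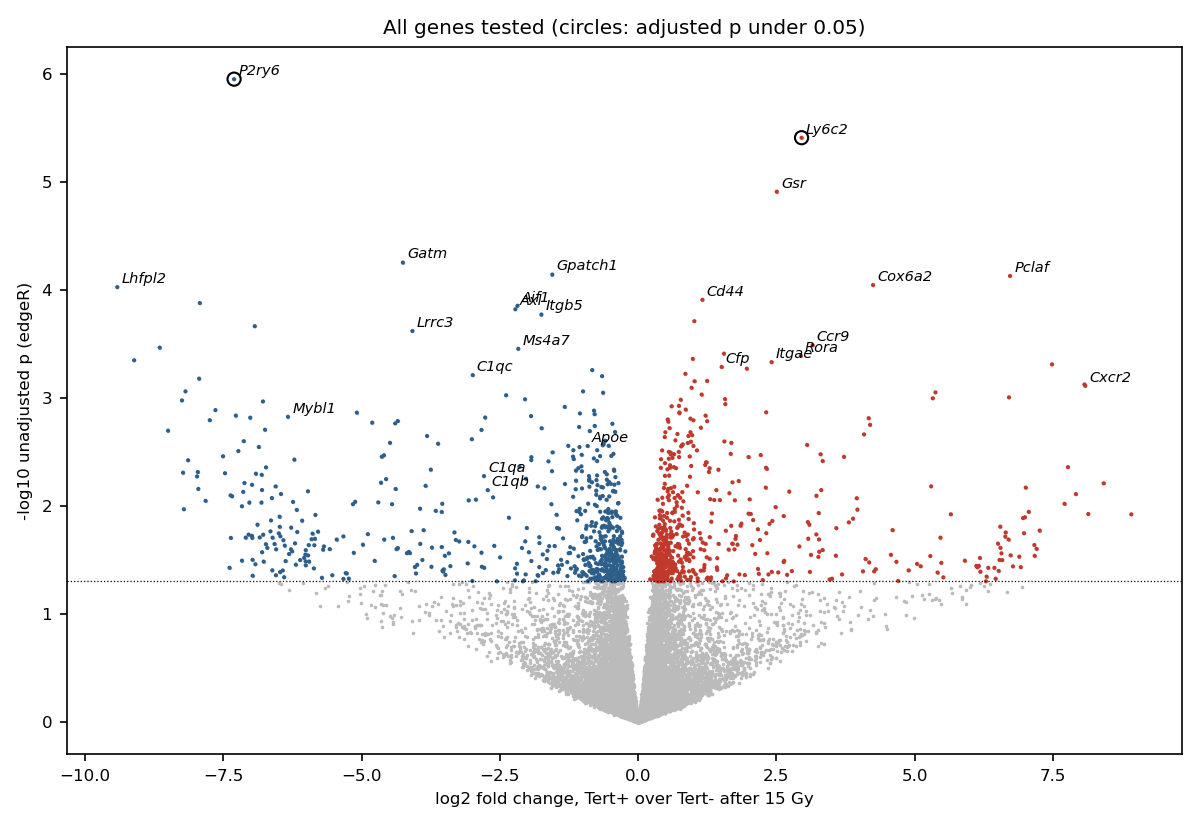
Each point is 1 of 15915 genes, with the log2 fold change of Tert+ over Tert- after 15 Gy on the horizontal axis and -log10 of edgeR's unadjusted p on the vertical axis. Red and blue points lie above the dotted line at an unadjusted p of 0.05, and the 2 circled genes, P2ry6 on the left and Ly6c2 on the right, passed an adjusted p of 0.05.

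Ly6c2 (ENSMUSG00000022584, mm10 chromosome 15:75108158-75111970, minus strand, protein coding) measured 70.1, 45.7, 46.8 and 70.2 CPM in Tert+ and 8.705, 9.86, 7.67 and 4.06 CPM in Tert-. Every Tert+ library was more than 4 times as high as every Tert- library. The means were 58.2 ± 13.8 CPM (SD, n = 4) and 7.57 ± 2.51 CPM (SD, n = 4), and the log2 fold change was 2.96 ± 0.42 (SE, edgeR adjusted p = 0.0308). Without RT the means were 60.8 CPM in Tert+ and 33.9 CPM in Tert-, so that the Tert- libraries after RT lay below all others for this gene. Ly6c2 has close copies in the Ly6 gene cluster, and how reads shared between copies were counted is not given in the sources used here. Ly6i, a neighbouring family member, measured 3.398, 6.14, 8.46 and 2.05 CPM in Tert+ and 0.725, 1.297, 1.19 and 0.776 CPM in Tert-, also without overlap (adjusted p = 0.459). Of 13 tested Ly6 family genes, 2 were higher at an unadjusted p under 0.05 and none lower.

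P2ry6 (ENSMUSG00000048779, chromosome 7:100937630-100974649, minus strand, protein coding) was close to absent from Tert+ after RT. It measured 0.261, 0, 0 and 0 CPM in Tert+, a total of 3 reads, and 23.03, 16.2, 17.7 and 1.47 CPM in Tert-, a total of 403 reads. Even the lowest Tert- library, replicate 4, lay above all Tert+ libraries, far under the other Tert- libraries. The log2 fold change was -7.31 ± 0.94 (adjusted p = 0.0177), and the ratio of group counts was between 51.7 and 741 in favour of Tert- (95% counting interval). Without RT, P2ry6 averaged 7.04 CPM in Tert+ and 37.2 CPM in Tert-. P2RY6 is known in macrophages and microglia for triggering uptake of debris when injured cells release nucleotides. Of 18 tested nucleotide and nucleoside receptors, 2 were higher and 2 lower at an unadjusted p under 0.05. P2ry12, the ADP receptor of microglia and platelets, was the other lower one, with 0, 0, 0 and 0.513 CPM in Tert+ and 3.45, 2.46, 2.64 and 1.04 CPM in Tert-. Adora2b, an adenosine receptor, was at 0 in all 4 Tert- libraries and measured 0, 2.59, 7.37 and 2.05 CPM in Tert+. P2ry2 reads came from Tert+ replicate 4 alone (3.76 CPM).

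The 2 calls depended on single libraries. No gene passed without Tert+ replicate 1, 2 or 4 or without Tert- replicate 3, edgeR's adjusted p-values then being 0.0529 to 0.108 for P2ry6 and 0.0529 to 0.161 for Ly6c2. P2ry6 alone was left without Tert- replicate 4, Ly6c2 was also lost without Tert- replicate 1 (adjusted p = 0.116) or 2 (0.0809), and 7 genes passed without Tert+ no RT replicate 1. Without both Tert+ replicates 3 and 4, an alternative added after the data were seen, no gene passed (0.148 for P2ry6 and 0.144 for Ly6c2). The directions of both genes were the same in each of these fits. DESeq2 called 146 genes (67 higher, 79 lower) and limma voom none, with 1272 genes at an unadjusted p under 0.05.

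**Figure D2:**
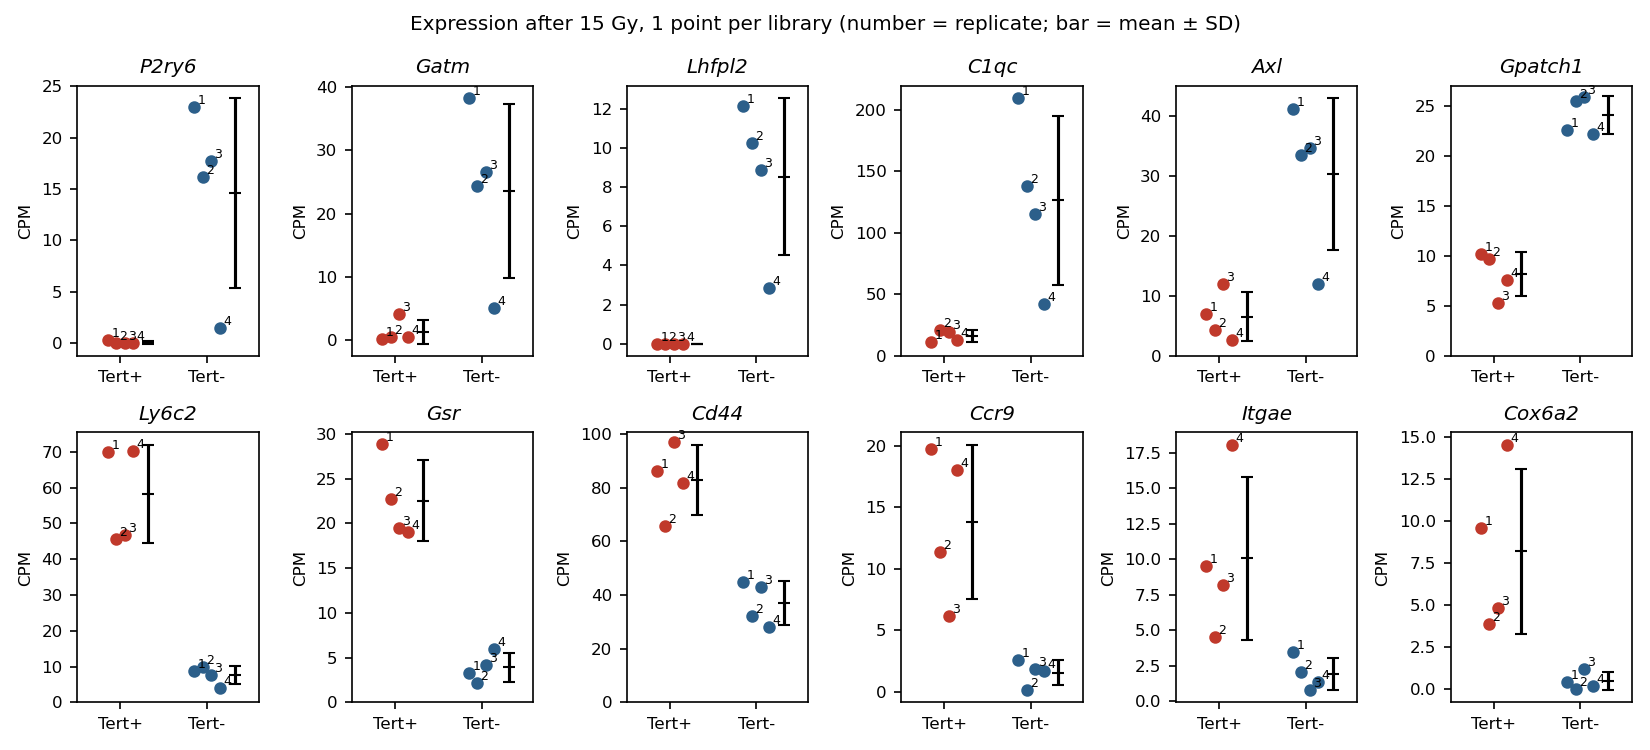
CPM (vertical axes, linear) of 12 genes in the 4 Tert+ (red) and 4 Tert- (blue) libraries after 15 Gy, with the replicate number beside each point and the mean ± SD as a black bar. P2ry6, Gatm, Lhfpl2, C1qc, Axl and Gpatch1 sit lower in Tert+ and Ly6c2, Gsr, Cd44, Ccr9, Itgae and Cox6a2 higher, and Tert- replicate 4 is the lowest Tert- library for each of the first 6 genes.

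The sequence before the start of Ly6c2 and of C1qb, a macrophage gene described below, is shown because these genes stand for the groups higher and lower in Tert+. The 250 bases upstream of the RefSeq start are printed 5′ to 3′ on the gene's own strand (build GRCm38.p6, Ly6c2 at chr15:75111972-75112221, the outer of 2 starts, and C1qb at chr4:136886201-136886450, both on the minus strand), and capitals mark GAGGAA, the core bound by the myeloid factor PU.1 and other ETS proteins, searched on both strands (TTCCTC on the other).
Ly6c2: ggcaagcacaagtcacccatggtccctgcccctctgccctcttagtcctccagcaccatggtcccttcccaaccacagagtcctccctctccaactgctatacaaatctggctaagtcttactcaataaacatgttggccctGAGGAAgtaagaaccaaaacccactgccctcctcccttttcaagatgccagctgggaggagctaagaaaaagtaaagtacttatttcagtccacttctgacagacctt
C1qb: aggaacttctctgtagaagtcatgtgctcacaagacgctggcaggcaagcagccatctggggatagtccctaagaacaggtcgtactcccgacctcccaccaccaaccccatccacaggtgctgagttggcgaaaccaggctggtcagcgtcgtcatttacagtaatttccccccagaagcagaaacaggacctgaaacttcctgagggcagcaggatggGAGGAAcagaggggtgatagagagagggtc
Each window held 1 match, which began 108 bases before the start in Ly6c2 and 30 in C1qb. Of all 32851 promoter windows of this length, 23.3% held at least 1 match. A match in a window describes the letters and is no evidence of binding.

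After Ly6c2, the higher genes with the smallest p were Gsr, Pclaf, Cox6a2 and Cd44, and none passed after adjustment. Gsr, glutathione reductase, measured 28.8, 22.8, 19.5 and 19.1 CPM in Tert+ and 3.26, 2.21, 4.23 and 5.95 CPM in Tert- (log2 fold change 2.51 ± 0.40, adjusted p = 0.0649). The lowest Tert+ library was more than 3 times as high as the highest Tert- library, and without RT the means were 38.8 and 24.7 CPM. Cd44, the hyaluronan receptor of activated leukocytes, measured 86.4, 65.8, 97.2 and 81.9 CPM against 44.8, 32.2, 43.1 and 28.1 CPM (log2 fold change 1.16 ± 0.23, adjusted p = 0.1995). Pclaf, a PCNA-binding factor of dividing cells, was at 0 in all 4 Tert- libraries and measured 0.436, 2.101, 1.501 and 1.28 CPM in Tert+, at least 12.9-fold higher when 3 counts are set as the floor over the group. Without RT the means were 20.96 and 13.2 CPM. Cox6a2, the muscle-type isoform of a cytochrome c oxidase subunit, measured 9.58, 3.88, 4.78 and 14.5 CPM against 0.363, 0, 1.19 and 0.173 CPM.

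The other 7 of the 12 higher genes with the smallest p were Ubash3b, Ccr9, Rora, Smpdl3a, Itgae, Cfp and Zfp772. Ccr9, the receptor for the gut and thymus chemokine CCL25, measured 19.7, 11.3, 6.14 and 18.1 CPM in Tert+ and 2.54, 0.1297, 1.85 and 1.73 CPM in Tert-. Itgae, the αE integrin chain that binds E-cadherin on epithelium, measured 9.497, 4.53, 8.19 and 18.1 CPM against 3.45, 2.08, 0.793 and 1.38 CPM. These 2 genes did not overlap between the groups. Rora, a nuclear receptor of innate and regulatory lymphocytes, ran from 4.69 to 42.1 CPM in Tert+ and from 1.81 to 4.83 CPM in Tert-, and Tert+ replicate 2 lay inside the Tert- range. Ubash3b, a phosphatase that dampens antigen receptor signalling, measured 28.6, 43.3, 40.5 and 44.5 CPM against 17.6, 19.8, 16.5 and 23.4 CPM. Cfp (properdin, which stabilises the alternative complement pathway), Smpdl3a (a secreted phosphodiesterase) and Zfp772 (a zinc finger protein) had log2 fold changes of 1.51, 0.99 and 1.97, each without overlap. Adjusted p-values of these 7 genes ran from 0.2203 to 0.313.

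Among the lower genes, Gatm, Gpatch1 and Lhfpl2 had the smallest p after P2ry6. Gatm, which makes the creatine precursor guanidinoacetate, measured 0.0871, 0.485, 4.09 and 0.513 CPM in Tert+ and 38.3, 24.4, 26.6 and 5.004 CPM in Tert- (log2 fold change -4.25 ± 0.77, adjusted p = 0.186). Tert+ replicate 3 and Tert- replicate 4 came closest to each other, at 4.09 and 5.004 CPM. Lhfpl2, a tetraspan membrane protein, had no read in any Tert+ library and measured 12.2, 10.2, 8.86 and 2.85 CPM in Tert-, at least 92.9-fold lower in Tert+ with the same floor. Gpatch1, a G-patch protein of the spliceosome, measured 10.2, 9.699, 5.32 and 7.61 CPM against 22.7, 25.6, 25.9 and 22.3 CPM with little spread in Tert- (log2 fold change -1.55 ± 0.29, adjusted p = 0.186). Lrrc3, a leucine-rich repeat protein, measured 0.0871, 1.78, 0.955 and 0.257 CPM against 26.7, 12.5, 7.803 and 2.42 CPM. Edc4, a scaffold of mRNA decapping, had a small difference without overlap (log2 fold change -0.65 ± 0.15). Itgb5, an integrin chain used in uptake of dying cells, had a log2 fold change of -1.75.

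Macrophage identity genes were the list with the largest share of lower members. Of 24 tested, 15 were lower at an unadjusted p under 0.05 (62.5% against 3.8% of all genes) and 1 higher. Fold changes were below 0 for 19 members and above 0 for 5. Without overlap between the groups, 8 were lower (against 2.46% of all genes). The median log2 fold change was -2.16 against -0.004 over all genes. C1qa, C1qb and C1qc encode the 3 chains of the complement opsonin C1q and lie side by side on chromosome 4. C1qc measured 11.1, 20.7, 19.6 and 12.6 CPM in Tert+ and 209, 138, 116 and 42.5 CPM in Tert- (log2 fold change -2.99 ± 0.67, adjusted p = 0.322). C1qa measured 17.7, 25.7, 43.9 and 10.01 against 275, 168, 162 and 62.5 CPM, and C1qb 18.6, 23.9, 57.04 and 16.3 against 299, 191, 194 and 75.1 CPM. All 3 chains had the same order of groups without overlap, and in each the lowest Tert- library was replicate 4. C1qa, C1qb and C1qc passed the adjusted threshold when Tert+ no RT replicate 1 was left out of the fit (0.0381, 0.0251 and 0.0229).

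Aif1, Axl, Ms4a7 and Apoe, also on the macrophage list, were lower too. Aif1 (IBA1, an actin-binding protein) measured 3.31, 4.53, 7.91 and 3.42 CPM in Tert+ and 32.8, 18.03, 26.1 and 9.84 CPM in Tert-. Axl, a receptor for phosphatidylserine-bridging GAS6, measured 7.06, 4.36, 12.01 and 2.65 against 41.2, 33.5, 34.8 and 11.99 CPM, where Tert+ replicate 3 and Tert- replicate 4 met. Ms4a7, a membrane protein of tissue macrophages, measured 9.85, 5.33, 6.82 and 8.98 against 59.3, 37.4, 33.9 and 10.3 CPM, the highest Tert+ library lying just under Tert- replicate 4. Apoe, a lipid carrier, measured 642, 303, 456 and 757 against 1367, 821, 845 and 1034 CPM. The log2 fold changes were -2.18, -2.22, -2.17 and -0.91. The 1 member higher at an unadjusted p under 0.05, Lyz2 (lysozyme of macrophages, monocytes and neutrophils), is also on the monocyte and neutrophil list.

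The macrophage list took 0.151, 0.0856, 0.1103 and 0.153% of counts in Tert+ and 0.336, 0.204, 0.205 and 0.163% in Tert-, which did not overlap (exact two-sided permutation p = 0.0286, n = 4 and 4, 0.214 after adjustment over 15 marker lists). That p is the smallest such a test can give. The adjusted value could therefore fall under 0.05 only if most of the 15 lists were separated as fully. Tert- replicate 4 was the lowest of the 4 Tert- libraries for 20 of the 24 members (ties counted) and Tert- replicate 1 for 1. Without Tert- replicate 4 the count of lower members was 16, and without Tert- replicate 1 it was 11. P2ry6, Gatm, Lhfpl2 and Lrrc3 were lowest in that same Tert- library, replicate 4, and the part of macrophage RNA in their differences was not tested. On the list of dying cell clearance and lipid handling, 5 of 24 were lower (20.8%) and none higher, P2ry6, Axl, Itgb5 and Apoe among them. On the complement list 4 of 16 were lower, including the C1q chains, and 1 was higher, Cfp.

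**Figure D3:**
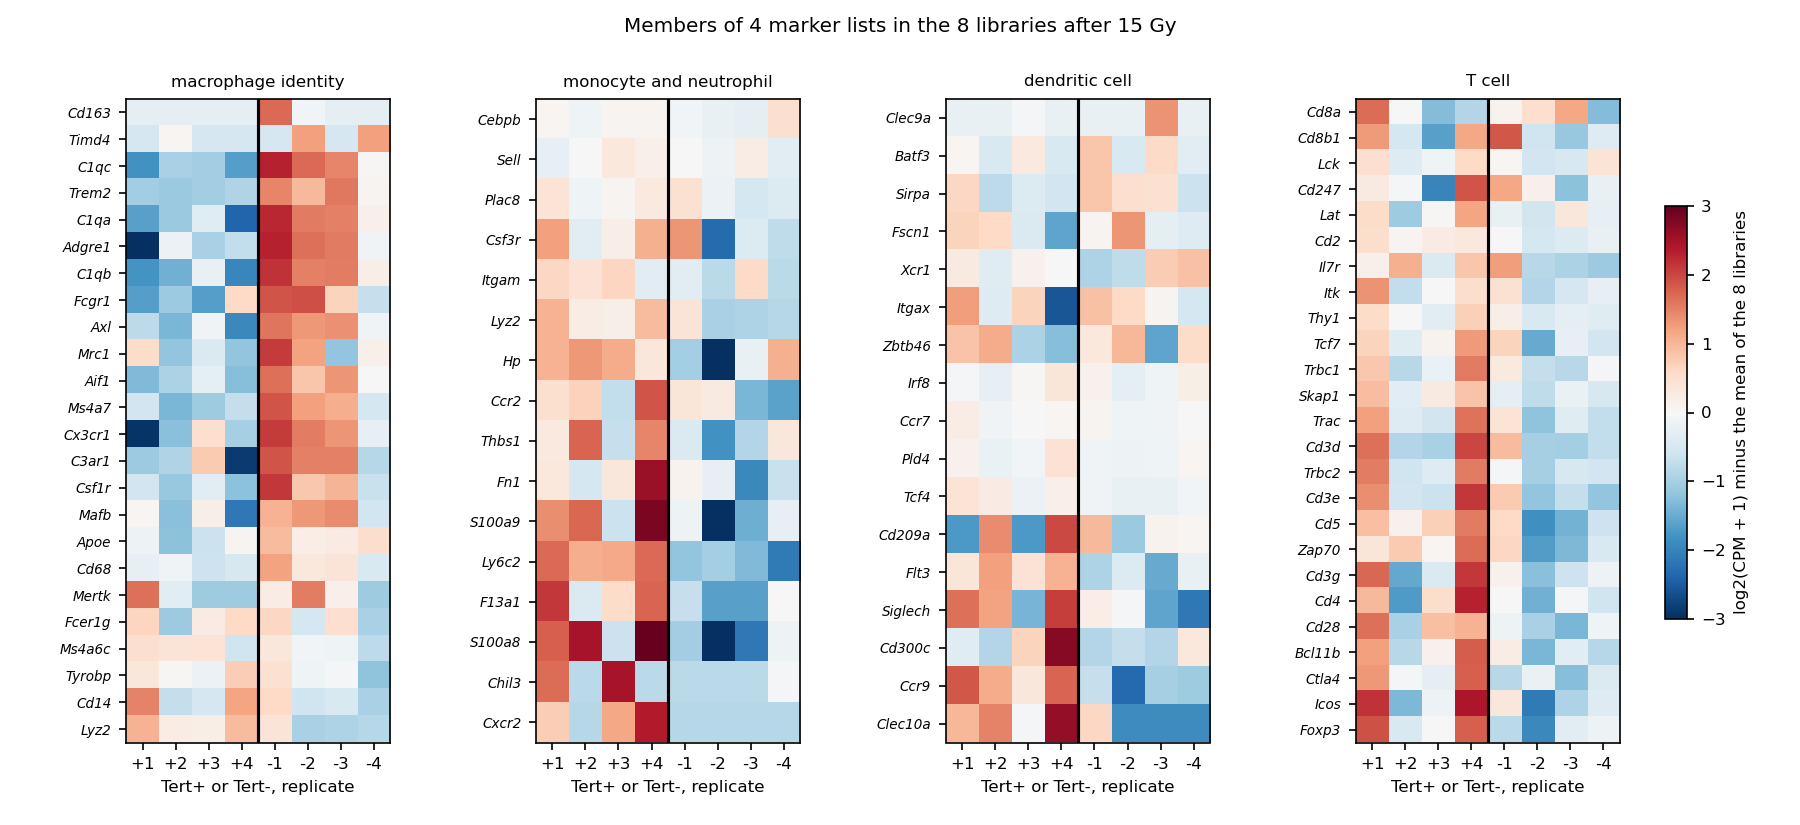
log2(CPM + 1) minus the mean of the 8 libraries (colour, red above and blue below the mean) for each tested member of 4 marker lists, with the Tert+ libraries left and the Tert- libraries right of the black line. Macrophage genes are mostly red in Tert- replicates 1 to 3 and nearer the mean in Tert- replicate 4, monocyte genes are mostly red in Tert+, and T cell genes are red in Tert+ replicates 1 and 4.

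Monocyte and neutrophil genes had the opposite direction. Of 16 tested, 7 were higher at an unadjusted p under 0.05 (43.8% against 3.59% of all genes) and none lower, all 16 fold changes were above 0, and the median log2 fold change was 1.51. Only Ly6c2 had no overlap between the groups. Cxcr2, the neutrophil chemokine receptor, was at 0 in all Tert- libraries and measured 2.004, 0, 3.002 and 8.38 CPM in Tert+, at least 42.1-fold higher with the floor of 3 counts over the group. Of its 143 reads 98 were in Tert+ replicate 4, and without that library the bound was 19.4-fold. Chil3, a chitinase-like protein of monocytes, measured 4.62, 0, 8.87 and 0 against 0, 0, 0 and 0.6902 CPM, with the reads in 2 Tert+ libraries. F13a1, a coagulation transglutaminase of monocytes, measured 12.5, 1.29, 3.55 and 9.41 against 0.907, 0, 0 and 2.07 CPM. The list took 0.179, 0.1596, 0.164 and 0.204% of counts in Tert+ and 0.151, 0.112, 0.126 and 0.1195% in Tert-, without overlap (exact permutation p = 0.0286, 0.214 adjusted, with the limit given for the macrophage list). Leaving out single libraries gave 5 to 10 higher members. Ly6c2 itself is on this list and on the plasmacytoid dendritic cell list given at the end. The part of monocyte RNA or of other cells' RNA in its difference was not tested.

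Of 17 dendritic cell genes 5 were higher at an unadjusted p under 0.05 (29.4%) and none lower, while 10 fold changes were above 0 and 7 below, and the list's median was 0.09 on the log2 scale. The list took 0.5499, 0.445, 0.453 and 0.521% of counts in Tert+ and 0.485, 0.429, 0.433 and 0.493% in Tert-, with overlap (exact permutation p = 0.343). Flt3, the growth factor receptor of dendritic cell precursors, measured 9.58, 18.3, 9.96 and 15.9 against 3.26, 5.19, 1.85 and 5.95 CPM without overlap. Siglech, a lectin of plasmacytoid dendritic cells, measured 71.97, 53.2, 7.91 and 96.9 against 25.8, 21.9, 6.74 and 4.31 CPM, and Tert+ replicate 3 lay inside the Tert- range. Clec10a, a lectin of conventional dendritic cells, measured 6.45, 9.54, 2.59 and 22.2 against 4.72, 0, 0 and 0 CPM. Without Tert+ replicate 4, 3 dendritic cell genes were higher.

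Of 25 T cell genes, 8 were higher (32%) and none lower, all 25 fold changes were above 0 (24 with upper quartile scaling), and the median was 1.24. Cd2, an adhesion receptor of T cells, was the only one without overlap, at 292, 213, 240.3 and 249 against 198, 139, 152 and 173 CPM. Icos, a costimulator of activated T cells, measured 51.2, 3.56, 9.42 and 61.5 against 13.6, 1.69, 5.16 and 7.94 CPM, and Foxp3, the transcription factor of regulatory T cells, 15.1, 2.101, 3.27 and 13.9 against 1.45, 0.1297, 2.38 and 2.85 CPM. Tert+ replicates 1 and 4 were high for both genes and replicates 2 and 3 were in or near the Tert- range. Cd5, a brake on antigen receptor signalling, measured 18.5, 10.5, 16.1 and 30.1 against 14.9, 1.95, 2.91 and 5.78 CPM. Tert+ replicate 4 was the highest Tert+ library for 17 of the 25 genes and replicate 1 for 7. The count of higher members was 3 without Tert+ replicate 4, 4 without Tert+ replicate 1 and 3 without both Tert+ replicates 3 and 4, and 5 and 4 without Tert- replicate 2 and 3. The T cell share of counts was 0.0924, 0.0433, 0.0501 and 0.102% in Tert+ and 0.0545, 0.0296, 0.0354 and 0.0449% in Tert-, with overlap (exact permutation p = 0.143). Of 14 natural killer and cytotoxic cell genes, 1 was lower and none higher: Eomes, a transcription factor of such cells, at 0 in all Tert+ libraries and 2.18, 0, 2.38 and 0.776 CPM in Tert-.

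Of 23 mature B cell genes 1 was higher and 1 lower at an unadjusted p under 0.05 (4.3% each), 4 were higher without overlap (against 2.43% of all genes) and 1 lower, and the list's median was 0.02 on the log2 scale. Ighm, the IgM heavy chain, measured 6169, 5350.2, 6157 and 6074 CPM in Tert+ and 4948, 4415, 4552 and 4843 CPM in Tert- (log2 fold change 0.34 ± 0.15). Btk, a kinase of the B cell receptor, measured 182, 226, 204 and 161 against 290.0, 254, 249.7 and 229.9 CPM (log2 fold change -0.41 ± 0.14). Both genes were without overlap, in opposite directions. Of 15 germinal centre genes 1 was higher (6.7%) and 2 lower (13.3%). Rgs13, a regulator of G protein signalling, measured 5.66, 3.39, 3.68 and 2.48 against 0, 1.82, 0 and 0 CPM, and Mybl1, a transcription factor, was at 0 in all Tert+ libraries and 1.27, 0.389, 2.25 and 0.0863 CPM in Tert-. Neil1, a DNA glycosylase, measured 57.2, 86.6, 47.5 and 33.3 against 68.9, 63.05, 105 and 106 CPM, with overlap.

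Of 15 plasma cell genes 4 were higher (26.7%) and none lower. Jchain, which joins IgM and IgA, measured 31.1, 0.9699, 0 and 7.96 against 0, 1.43, 0 and 0.949 CPM. Ighg2b and Ighg3, IgG heavy chains, measured 132, 6.63, 2.73 and 22.2 and 14.8, 6.95, 17.6 and 129 CPM in Tert+, and 11.6, 1.56, 0.264 and 4.57 and 3.08, 11.9, 5.29 and 12.5 CPM in Tert-. In each of these 3 genes, 1 Tert+ library held most of the reads of its group: replicate 1 for Jchain and Ighg2b and replicate 4 for Ighg3. Sdc1 (syndecan-1, CD138), which salivary epithelium also expresses, measured 49.8, 43.3, 24.4 and 19.1 against 18.3, 11.9, 17.2 and 15.6 CPM without overlap. Close copies among immunoglobulin genes make their values less certain.

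Of 20 epithelial identity genes 3 were lower at an unadjusted p under 0.05 (15.0% against 3.8% of all genes) and none higher, 15 fold changes were below 0, and the median log2 fold change was -0.56. Krt7, a keratin of duct cells, measured 27.7, 31.4, 46.8 and 8.04 CPM in Tert+ and 56.8, 131, 60.2 and 88.3 CPM in Tert-, without overlap (log2 fold change -1.57 ± 0.53, adjusted p = 0.5002). Grhl2, a transcription factor of epithelial junctions, measured 0.261, 1.29, 0 and 0 against 12.2, 0.389, 9.92 and 1.898 CPM. Krt15, a basal keratin, was at 0 in all Tert+ libraries and 0, 0, 1.32 and 2.76 CPM in Tert-. Grhl2 and Krt15 overlapped between the groups.

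None of 16 acinar products, 20 granular convoluted tubule products, 7 myoepithelial, 19 fluid secretion and 17 salivary progenitor genes tested had an unadjusted p under 0.05. Dcpp3, a secreted acinar protein with close copies, measured 2640.4, 12541, 8640.2 and 1648 CPM in Tert+ and 4059, 615, 7145 and 1868 CPM in Tert-. Klk1, a kallikrein of the granular ducts with close copies, measured 937, 2031, 4789 and 544 against 1227, 8182, 1938 and 1657 CPM. Such secretory genes varied widely among libraries of 1 population, with SEs of the log2 fold change of 1.27 for Dcpp3 and 0.82 for Klk1, and differences within that spread were not detectable here. Ly6a, the surface antigen Sca-1, measured 334, 223, 329 and 311 against 292, 279, 281 and 172 CPM. In the myoepithelial list, Krt14 measured 0, 15.2, 22.1 and 2.22 against 1.99, 2.98, 6.48 and 14.7 CPM. Of 7 endothelial genes 1 was lower (Esam, an endothelial junction protein, at 0 in Tert+ and 1.09, 4.93, 0.264 and 1.12 CPM in Tert-), of 8 fibroblast genes 1 (Col3a1, reads of which came mostly from Tert- replicate 2), and of 6 erythroid and platelet genes none.

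**Figure D4:**
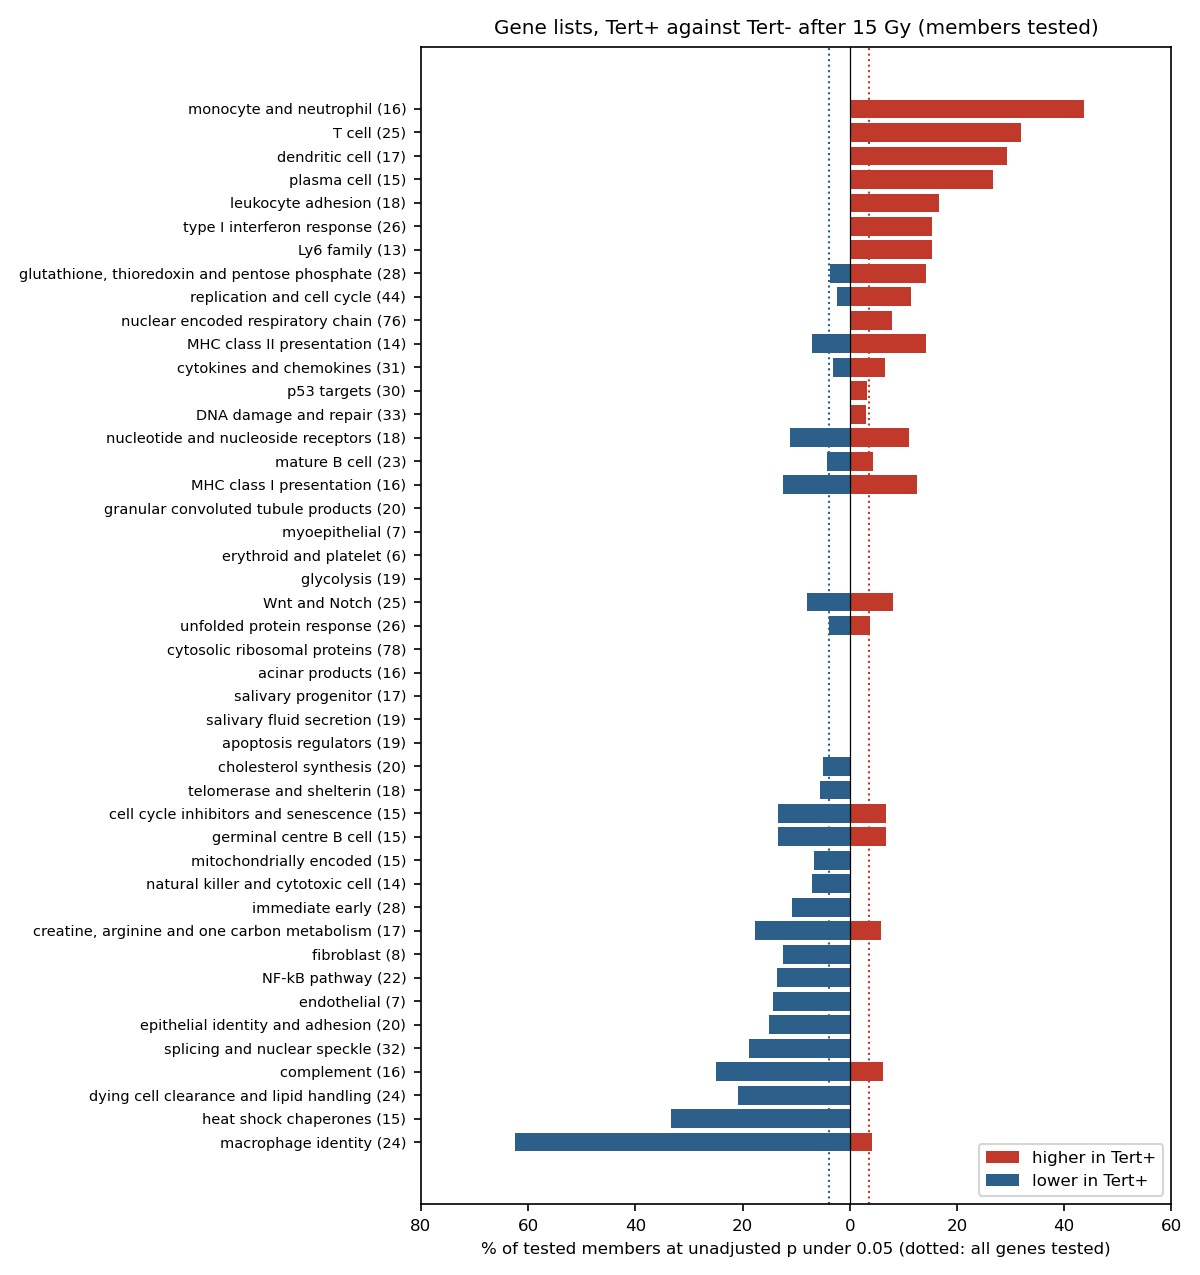
For each of 45 gene lists (tested members in brackets), the percentage of members higher (red, to the right) or lower (blue, to the left) in Tert+ after 15 Gy at an unadjusted p under 0.05, with the same share over all genes as dotted lines (3.59% and 3.8%). Macrophage genes reach 62.5% on the lower side and monocyte and neutrophil genes 43.8% on the higher side, while 9 lists had no such member.

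Few genes of the radiation response differed between the populations at an unadjusted p under 0.05. After ionising radiation, p53 switches on genes for cell cycle arrest, repair and apoptosis. Of 30 p53 targets 1 was higher and none lower, of 33 DNA damage and repair genes 1 was higher and none lower, and of 19 apoptosis regulators none was either; these shares, 3.3%, 3.0% and 0%, are at or under the background. Ei24, an ER protein induced by p53, measured 60.1, 39.3, 90.5 and 76.4 against 32.3, 59.7, 45.2 and 45.2 CPM, with overlap. Mcl1, an inhibitor of apoptosis, had a log2 fold change of -0.07 ± 0.15. Of 18 telomerase and shelterin genes 1 was lower, Rtel1, a helicase of telomere ends, at 19.8, 29.6, 10.1 and 9.15 against 26.8, 16.99, 46.02 and 35.98 CPM.

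Of 44 replication and cell cycle genes 5 were higher (11.4%) and 1 lower. Ccnb1, cyclin B1 of mitotic entry, measured 6.62, 2.26, 1.09 and 3.94 against 0, 0.649, 0 and 0.604 CPM without overlap. Kif11, a spindle motor, was found in Tert+ replicate 4 alone (7.44 CPM), and its fold change was 0 without that library. Cdk2, a kinase of S phase entry, measured 110.3, 106, 97.2 and 71.3 against 75.3, 61.6, 81.2 and 72.7 CPM. Mcm3, a subunit of the replicative helicase, was the lower one, at 44.8, 52.9, 26.1 and 41.6 against 118, 88.5, 41.8 and 57.3 CPM. Among 15 cell cycle inhibitors and senescence genes, 1 was higher and 2 lower. Cdkn1b (p27) measured 39.3, 23.9, 39.6 and 26.5 against 55.9, 47.2, 50.7 and 46.7 CPM, without overlap. Cdkn2b (p15) measured 0.174, 0, 0 and 4.71 against 0, 0, 0 and 0.173 CPM, nearly all of it in Tert+ replicate 4.

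Nuclear genes of the respiratory chain had mostly small positive fold changes. Of 76 nuclear genes of the respiratory chain 6 were higher (7.9%) and none lower, 69 fold changes were above 0 (68 with RLE or upper quartile scaling), and the median log2 fold change was 0.16. Ndufb3, a subunit of complex I, measured 59.4, 50.9, 62.8 and 57.5 against 38.6, 41.3, 48.7 and 37.9 CPM and Ndufa7, another, 122, 103, 95.5 and 117 against 75.6, 80.3, 74.5 and 82.6 CPM, each without overlap. Sdhd, a subunit of complex II, measured 177, 141, 189 and 193 against 152, 123, 109 and 122 CPM. Their log2 fold changes lay between 0.47 and 0.48. Of 15 mitochondrially encoded genes 12 fold changes were below 0 (13 with RLE scaling) with a median of -0.09, and 1 gene was lower at an unadjusted p under 0.05, mt-Co2 (a cytochrome c oxidase subunit), at 62.4, 79.2, 91.97 and 89.8 against 138, 92.2, 179 and 100.4 CPM. None of 78 cytosolic ribosomal protein genes and 19 glycolysis genes had an unadjusted p under 0.05, and 10 of the glycolysis fold changes were below 0 (11 with RLE or upper quartile scaling).

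Of 28 glutathione, thioredoxin and pentose phosphate genes 4 were higher (14.3%) and 1 lower. Next to Gsr, Slc7a11, the cystine importer that feeds glutathione synthesis, measured 3.31, 0.162, 4.91 and 7.36 against 0, 0.1297, 0 and 0.173 CPM. Prdx2, a peroxiredoxin, measured 108, 98.8, 119 and 121 against 82.5, 101, 67.98 and 85.6 CPM. Ggt1, which breaks down glutathione outside the cell, measured 2.44, 2.75, 0 and 0 against 0, 0, 0 and 0.0863 CPM. Of 17 creatine, arginine and one carbon genes, 1 was higher and 3 lower. Slc6a8, the creatine transporter, measured 0.0871, 0.485, 0.273 and 0 against 1.81, 1.43, 5.69 and 0.776 CPM, lower and without overlap like Gatm. Phgdh, of serine synthesis, measured 117, 123, 92.1 and 79.04 against 80.9, 82.5, 56.6 and 79.5 CPM, and Mat2a, which makes S-adenosylmethionine, 341, 295, 329.7 and 232 against 359.8, 393, 399 and 332 CPM. Of 20 cholesterol synthesis genes 1 was lower, the regulator Srebf2, at 113, 92.6, 114 and 126 against 129, 169, 187 and 175 CPM, without overlap.

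Splicing and heat shock chaperone genes had mostly negative fold changes. Of 32 splicing and nuclear speckle genes 6 were lower (18.8%) and none higher, with 29 fold changes below 0 and a median of -0.25. Srsf2 and Srsf7, SR proteins of splice site choice, measured 118, 123, 172 and 115 and 206, 166, 115 and 124 CPM in Tert+, and 123, 175, 303 and 288 and 151, 230.3, 249 and 241 CPM in Tert-. Tert- replicate 1 lay inside the Tert+ range for both. Pnisr, an SR-related protein, did not overlap, at 73.6, 69.7, 48.9 and 51.9 against 83.6, 108, 94.6 and 107 CPM. Of 15 heat shock chaperones 5 were lower (33.3%), all 15 fold changes were below 0, and none was without overlap. Hspa4, an HSP70 cochaperone, measured 322, 333, 271 and 246 against 384, 329, 388 and 406 CPM, and Hspe1, the mitochondrial chaperonin lid, 126, 139, 125 and 128 against 134, 148, 208 and 182 CPM. Hsp90ab1 and Hspa9 had log2 fold changes of -0.27 and -0.35. Of 28 immediate early genes 3 were lower (10.7%): Ier5, at 225, 345, 359.7 and 286 against 385, 369.7, 546 and 468 CPM without overlap, Egr3 and Myc, the last 2 with log2 fold changes of -0.53 and -0.41.

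Of 22 NF-kB pathway genes 3 were lower at an unadjusted p under 0.05 (13.6%) and none higher. Traf1, an adaptor of TNF receptors, measured 67.9, 62.4, 49.1 and 86.8 against 114, 105, 94.3 and 135 CPM without overlap, and Nfkbid and Chuk had log2 fold changes of -0.65 and -0.42. Of 26 type I interferon response genes 4 were higher (15.4%) and none lower, and 22 fold changes were above 0 (21 with upper quartile scaling). Ifit1, which binds foreign RNA, measured 35.3, 27.2, 29.2 and 27.6 against 23.6, 23.9, 9.52 and 3.45 CPM, Trim30a 188, 200.1, 154 and 135 against 112, 124, 129 and 106 CPM and Xaf1 89.6, 65.8, 73.1 and 70.7 against 59.5, 52.8, 60.04 and 45.1 CPM, all without overlap, and the RNA sensor Ifih1 18.7, 13.3, 33.02 and 16.1 against 9.61, 17.4, 9.52 and 6.56 CPM with overlap. Of 31 cytokines and chemokines 2 were higher and 1 lower. Ccl9, a chemokine for myeloid cells, measured 4.62, 3.23, 5.19 and 13.2 against 1.63, 1.56, 0.793 and 1.64 CPM, and Ccl6 7.75, 5.82, 6.28 and 14.9 against 3.45, 5.45, 1.85 and 4.4001 CPM, both without overlap. Ccl22, a chemokine that attracts regulatory T cells, had reads in Tert- alone, nearly all of them in replicate 2 (12.2 CPM). Of 25 Wnt and Notch genes 2 were higher and 2 lower. Dtx1, a Notch target and ubiquitin ligase, measured 67.8, 46.4, 68.5 and 102 against 191, 109.9, 114 and 155 CPM, and Lef1, the Wnt transcription factor, 30.8, 19.2, 28.4 and 18.4 against 13.4, 6.36, 12.3 and 7.59 CPM, both without overlap. Dll4, a Notch ligand, was at 0 in all Tert- libraries and 2.35, 2.75, 0 and 0.171 CPM in Tert+. Of 26 unfolded protein response genes 1 was higher, Asns (asparagine synthetase), at 67.3, 21.7, 21.01 and 21.6 against 5.803, 12.97, 8.07 and 10.9 CPM, and 1 lower, the kinase Eif2ak3 (PERK).

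Antigen presentation genes had members at an unadjusted p under 0.05 in both directions, and none passed the adjusted threshold. Of 14 MHC class II genes 2 were higher (14.3% against 3.59% of all genes) and 1 lower (7.1% against 3.8%). The median log2 fold change of that list was -0.008. H2-DMb1, a peptide-loading chain, measured 245, 223, 191 and 239 against 303, 267, 318 and 324 CPM, and H2-Ob, of the B cell molecule that restrains peptide loading, 1250.0, 1279, 1413 and 1320.4 against 1201, 1055, 1132 and 1138 CPM, both without overlap. Ifi30, a lysosomal thiol reductase, had a log2 fold change of 0.32 ± 0.12. Of 16 MHC class I genes 2 were higher and 2 lower (12.5% each), and the median log2 fold change was 0.095. Psme2, a proteasome activator subunit, measured 189, 145, 170.2 and 211 against 112, 114, 125 and 134 CPM, without overlap. Tap1, the peptide transporter, measured 268, 226, 254 and 257 against 329.9, 252, 361 and 317 CPM, with overlap. H2-Q4, a class I heavy chain with close copies, was 1 of the 2 lower, at 11.4, 10.7, 16.8 and 8.98 against 12.7, 26.6, 53.96 and 18.98 CPM with overlap (log2 fold change -1.23 ± 0.50). Of 18 leukocyte adhesion genes 3 were higher (16.7%) and none lower: Cd44, Itgae and Cd53, the last a tetraspanin with a log2 fold change of 0.40.

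The same contrast without RT was used to see which differences were present in unirradiated cells. These groups too follow the titles, which the order of Tert went against. Without RT 6 genes were lower in Tert+ (0.0377% of genes tested) and none higher by edgeR's adjusted p, with 716 genes at an unadjusted p under 0.05. Ms4a7, Axl, Itgb5, Apoe and C1qc were 5 of them. All 6 were also lower after RT at an unadjusted p under 0.05 (against 3.8% of all genes), 4 of them without overlap (against 2.46%). Ms4a7 had a log2 fold change of -5.54 without RT and -2.17 after RT, Axl -4.03 and -2.22, and C1qc -5.98 and -2.99. Itgb5 had -3.04 and -1.75, and Apoe -1.93 and -0.91. Each was smaller after RT, but these genes were chosen for their difference without RT, so that a smaller value elsewhere is no comparison. The macrophage list as a whole had a median log2 fold change of -2.91 without RT. Of its 24 members, 17 were lower at an unadjusted p under 0.05, against 716 of 15915 genes tested in both directions together. The list took 0.0837, 0.244 and 0.236% of counts in the 3 Tert+ and 0.587, 0.378 and 0.476% in the 3 Tert- libraries.

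The monocyte and neutrophil list had a median of 0.15 and the T cell list of 0.18 without RT, each with no member at an unadjusted p under 0.05 in either direction, against 1.51 and 1.24 after RT. This difference of medians was not tested, and the libraries without RT varied widely. There the monocyte and neutrophil list took 0.139, 0.296 and 0.269% of counts in Tert+ and 0.251, 0.142 and 0.131% in Tert-. Tert+ replicates 2 and 3 thus lay above all Tert- libraries without RT, and Tert+ replicate 1 inside their range. The T cell list took 0.143, 0.0883 and 0.0754% in Tert+ and 0.154, 0.0597 and 0.0569% in Tert-. Ly6c2 had a log2 fold change of 0.84 without RT and P2ry6 of -2.41. Without RT, Ly6c2 measured 47.4, 94.0 and 41.0 CPM in Tert+ and 61.4, 23.1 and 17.2 CPM in Tert-, with overlap. In all, 139 genes had an unadjusted p under 0.05 and the same direction in both contrasts, 106 of them lower and 33 higher, and 18 had opposite directions. The 139 are 11.8% of the 1176 after RT and 19.4% of the 716 without RT, and Pearson's r of the fold changes across genes, which are not independent replicates, was 0.157.

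The test of the difference between the contrasts called no gene (0%): the smallest edgeR adjusted p was 0.999911 and 578 genes had an unadjusted p under 0.05, 328 higher and 250 lower. DESeq2 called 21 for this difference and limma voom none. The difference of log2 fold changes was 2.12 for Ly6c2, -4.90 for P2ry6 and 3.68 for C1qb. C1qb passed this test when Tert+ no RT replicate 1 was left out.

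**Figure D5:**
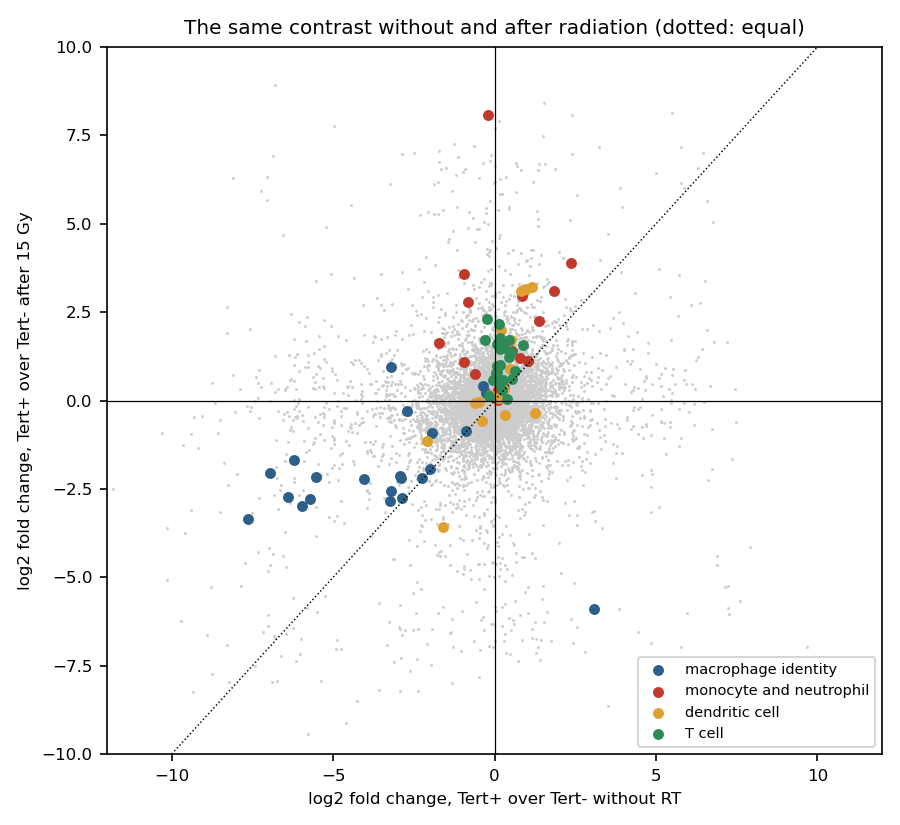
Log2 fold change of Tert+ over Tert- without RT (horizontal axis) and after 15 Gy (vertical axis) for all genes tested (grey) and the tested members of 4 marker lists (colours), with equal values on the dotted line. Macrophage genes lie mostly in the lower left, while T cell and monocyte and neutrophil genes lie above 0 after RT and around 0 without RT.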

How the data were processed

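RNA was extracted with the RNeasy Mini Plus kit and libraries were made from 1 ng each with Picelli's protocol, per the labels' protocols. The deposited table holds raw counts per gene and library, without normalisation, which the authors made from reads aligned with HISAT2 to mm10, per the submitters' processing notes. The counting program, strand setting, annotation and version are not given in the sources used here. Gene positions are those of the table. Of 54532 genes, edgeR's filterByExpr on the 4 groups left 15915. Analysis used R 4.3.3 and edgeR 4.0.16: TMM factors, 1 term per group over all 14 libraries, robust quasi-likelihood F tests (two-sided), Benjamini-Hochberg adjustment over all genes, threshold 0.05. CPM use TMM-scaled totals. Single values (Tert, shares of counts) were compared by exact two-sided permutation. Zero groups are given a floor of 3 counts over the group. Intervals and floors cover counting error only, as reads carry no molecular identifiers. The pipeline was tested on simulated data. DESeq2 1.42.0 and limma 3.58.1 (voom) were alternatives.

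The libraries, 45 gene lists and rules were chosen with earlier results of these data known. Named were Tert, Epcam, all genes past the threshold after or without RT, the 12 smallest p in each direction at a mean log2 CPM of at least 2 (1 predicted gene was passed over), per list up to 4 members with an unadjusted p under 0.05 or else up to 2 with the highest CPM, and close family members, of which 5 are not reported here. Lyz2, Cd79a and members in the figures fall outside that rule and were chosen after their values were seen. All 1028 listed symbols matched and 976 were tested. Promoter sequences are RefSeq's (GRCm38.p6), and the C1qc window is not printed. After RT, replicates of 1 group differed by more than counting noise in every pair, so none was a copy of another and each library was counted once. This does not show that they came from different mice.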

Additional observations from a re-analysis of the deposited data

Results flagged for a closer look

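In 27 of 282 groups of 4 libraries looked at, the gap between the highest or lowest library and its nearest neighbour, as a share of the group's range, was above Dixon's 95% critical value. Chance passes that value in about 1 in 20 groups of normally distributed values, which does not describe groups mostly at 0. These are values only, without a cause. List counts with single libraries left out are given only for the macrophage, monocyte and neutrophil, dendritic cell and T cell lists. The other lists were not counted in that way.

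Tert+ replicate 4 stood apart in P2ry12 (0.513 CPM), P2ry2 (3.76), Ighg3 (129), Kif11 (7.44) and Cdkn2b (4.71). It also had a fibroblast share of 0% of counts. Tert+ replicate 1 stood apart in P2ry6 (0.261 CPM, the others at 0), Ighg2b (132) and Asns (67.3). Tert+ replicate 2 did so in Ighm on the low side (5350.2 CPM) and Hspe1 (139), and Tert+ replicate 3 in Gatm (4.09 CPM) and Srsf2 (172).

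Among the Tert- libraries, replicate 2 stood apart in Klk1 (8182 CPM), Ccl22 (12.2), Col3a1 (7.39) and Rgs13 (1.82), and its granular convoluted tubule share was 1.32% of counts. Replicate 1 stood apart in Clec10a (4.72 CPM) and Hba-a2 (35.4), with an erythroid and platelet share of 0.0249%. Replicate 3 was low in Ccl9 (0.793 CPM) and Phgdh (56.6). Replicate 4 was low in Ly6a (172 CPM) and was the only Tert- library with reads of Chil3 (0.6902 CPM), Cdkn2b (0.173) and Ggt1 (0.0863).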

How the results depend on the processing

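The count of 2 genes past the threshold was 146 with DESeq2, 0 with limma voom, 4 without a filter on low counts (Ly6c2, P2ry6, Gsr and Pclaf), 1 with only the 8 libraries after RT (Ly6c2), and 0 without both Tert+ replicates 3 and 4, an alternative chosen after seeing the data. It was 2 with RLE and with upper quartile factors, and 3 with a stricter filter. Leaving out 1 library at a time gave 0 to 7. For the difference between the contrasts, DESeq2 gave 21 and leaving out 1 library 0 to 1. Of the lists, limma voom counted 3 dendritic cell and 4 T cell members. Leaving out 1 library gave 3 to 6 for dendritic cell, 3 to 12 for T cell, 5 to 10 for monocyte and neutrophil and 11 to 16 for macrophage genes, and without both Tert+ replicates 3 and 4 the T cell count was 3. Of 3087 values of 126 genes under the alternatives run, 3018 kept their side of the threshold and direction or stayed within 1 SE. Of the rest, 19 lost significance, 44 gained it, 6 moved and none reversed. Only P2ry6 and Ly6c2 were past the threshold in the main fit, so only they could lose it. P2ry6 stayed past it in 17 of 25 alternatives and Ly6c2 in 14 of 25. The 3018 therefore describe mostly genes that were not past it to begin with. The cause of these changes was not tested.

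The labels do not say whether libraries with the same replicate number are pairs, and the main tests leave pairing out. Same-numbered Tert+ and Tert- libraries have neighbouring library numbers, such as 9 and 10 for replicate 1 after RT. Same-numbered deviations correlated between -0.049 and 0.052 after RT, and the correlations were 0.106, 0.119 and -0.002 without RT. After RT, 3 of 8 libraries correlated best with their own number. Weak correlations over all genes cannot exclude pairing. With the number as a replicate block, 1 gene passed over 14 libraries (P2ry6) and 0 over 8 libraries, and 14 T cell genes were higher over 14 libraries.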

Other observations

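A list of 19 plasmacytoid dendritic cell genes was written after the values had been seen, so its counts are a description. Of the 19, 5 were higher in Tert+ after RT at an unadjusted p under 0.05 and none lower, 17 fold changes were above 0 (16 with upper quartile scaling), and the median log2 fold change was 0.17. The 5 were Ly6c2, Cox6a2, Ccr9, Siglech and Cd300c, the last named after its values were seen. Of these, Ly6c2, Cox6a2 and Ccr9 did not overlap between the groups. The list took 0.207, 0.176, 0.175 and 0.225% of counts in Tert+ and 0.183, 0.169, 0.154 and 0.178% in Tert-, with overlap. Without RT its median was 0.26 with no member at an unadjusted p under 0.05.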
